A study of Mus musculus with 18 samples.

Results

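Kupffer cells are the resident macrophages of the liver. Here 39 genes of Kupffer cells and other macrophages were followed in the livers of wild-type and Hmgn1 knockout mice, out of 18193 genes with a probe set on the array. The 39 genes were given as a list of names, chosen with earlier results of these data known. Each was read from the probe set that the platform annotation assigns to it. Where a gene had several probe sets, the one with the highest mean over the 18 arrays was used, of 72 probe sets in all. Of the 39 genes, 38 passed the filter on low values and were tested. The gene that did not is Itgam, the CD11b integrin chain, whose signal was between 0.18 and 17.1 on the 18 arrays.

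Kupffer cells line the liver sinusoids, where they take up bacteria, immune complexes and worn-out red cells from the blood through Fc, complement and scavenger receptors. They settle in the liver before birth, depend on signalling through the receptor CSF1R, and differ from newly arrived blood monocytes by surface proteins such as CLEC4F, TIMD4 and VSIG4. In the liver carcinogen model used here, macrophages are known as the main producers of the inflammatory cytokines that follow hepatocyte death.

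Total RNA of male liver was hybridised to Affymetrix Mouse430_2 arrays, 3 for each of 6 groups. The groups are Hmgn1+/+ and Hmgn1-/- liver without injection at 4 weeks, with a saline injection at 12 weeks, and with an injection of N-nitrosodiethylamine (DEN) at 12 weeks. DEN is a carcinogen that hepatocyte enzymes activate; the dose was 10 µg per g, injected when the animals were 4 weeks old, and saline was injected at the same age. Hmgn1 encodes a nucleosome-binding protein. The sources do not settle whether the 12 weeks are the age or the time since injection. Both genotypes descend from heterozygous crosses and were then bred as separate homozygous lines, so the genotype cannot be told apart from other differences between the lines. Nothing in the labels ties the 3 arrays within a group to different animals, so each p-value measures the spread between these samples, which may be partly technical. No cells were sorted: each value is an average over whole liver, in which fewer cells of a type and less RNA per cell cannot be told apart.

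The deposited signals share a trimmed mean of 150 on every array, and arrays of 1 group correlated between 0.964 and 0.986 on the log2 scale. The 6 saline arrays had a compressed upper range, with a highest signal of 16720 to 21752 against 46967 to 60173 on the other 12 arrays, so saline comparisons are given with quantile-normalized values where these differ. Hmgn1 itself did not separate the genotypes: the probe set with its highest mean read 6083 to 7948 in wild type and 6503 to 6864 in knockout at 4 weeks, 5039 to 5522 and 4838 to 5409 with saline, and 5392 to 6983 and 5631 to 6894 with DEN. Across its 3 tested probe sets the lowest adjusted p at 4 weeks was 0.577 (limma). The probe set quoted and another of the 3 have names ending in _x_at, so they may also bind related transcripts. Where the deletion lies in the gene is not given in the sources used here, so this signal does not check the labels. The ratio of the 3′ to the 5′ control probe sets of Gapdh, which rises when RNA or cDNA is less complete, was 1.13 to 2.19 in wild type and 1.35 to 1.70 in knockout at 4 weeks, 1.19 to 1.33 and 1.21 to 1.41 with saline, and 1.02 to 1.13 and 0.907 to 0.937 with DEN.

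Signals of marker genes were read first. Clec4f and Cd5l are themselves members of the list, so their values show that they are detected and do not check its label. Clec4f, a galactose-binding lectin made by Kupffer cells alone in the mouse, read 606, 610.4 and 636 on the wild-type arrays at 4 weeks, and the secreted macrophage protein gene Cd5l read 1201, 1237 and 1238. Markers of other blood cells were mostly dim: of 17 inflammatory monocyte and neutrophil genes measured, 12 had a mean under 50 in all 6 groups, as did 13 of 16 lymphocyte genes and 7 of 9 dendritic cell genes. The members Itgam, Cx3cr1 and Ccr2 also had means under 50 in all 6 groups. Clec4f read at least 435 on each of the 18 arrays, and Timd4, another marker of Kupffer cells, read 38.5 to 110.

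At 4 weeks, before any injection, 8 macrophage genes were lower in knockout than in wild-type liver and none was higher by the test. Of the 38 tested genes, 8 fell and 0 rose (limma, Benjamini-Hochberg adjusted p under 0.05), where 1.29% of all 12896 tested genes fell and 1.78% rose. Because the list was chosen with earlier results of these data known, its distance from all genes is no separate evidence. The 8 are Cd14, Tyrobp, Lyz2, Fcgr3, C1qa, Cd53, C1qc and Csf1r, and the same 8 passed with quantile-normalized values (1.28% of all genes fell and 1.61% rose). The difference was negative for 35 of the 38, with a median of -0.40 on the scale of log2(signal + 16), beside a median of 0.02 over all tested genes. For 24 of the 38 every knockout array lay below every wild-type array, which held for 9.99% of all tested genes. The summed signal of the 39 genes was 10745 to 10801 on the knockout arrays at 4 weeks and 14687 to 15012 on the wild-type arrays. It was 12256 to 18019 on the other 12 arrays, so the knockout arrays at 4 weeks were the lowest of the 18. For 7 of the 38 genes (Csf1r, Tyrobp, Fcer1g, Vsig4, Cd5l, Lyz2 and Cd14) each of these 3 arrays lay below all 15 others, which held for 1.13% of all tested genes. The number called was 4 without knockout replicate 1 or wild-type replicate 3 and 5 without knockout replicate 2. The summed signal of 14 stellate cell genes was likewise apart, at 7680 to 8631 in wild type and 6196 to 6302 in knockout, and its part in the result was not tested.

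**Figure D1:**
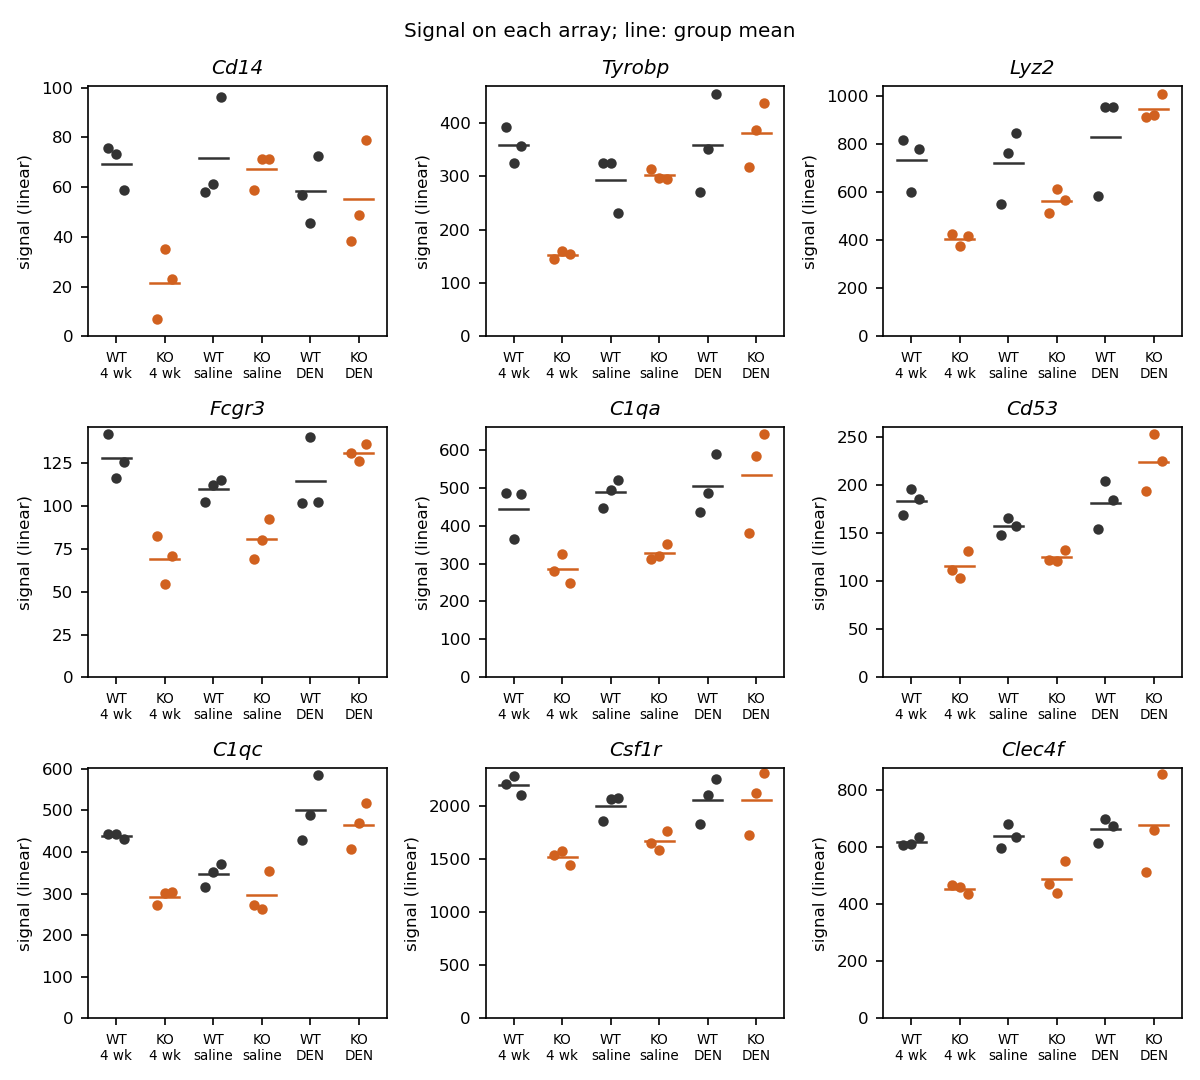
Signal on each array (linear scale, 1 point per array, 3 arrays per group, line at the group mean) for the 8 genes that fell in knockout liver at 4 weeks and for Clec4f, with wild type in black and knockout in orange. The knockout points at 4 weeks lie below all wild-type points at 4 weeks in each panel, and with DEN the points of both genotypes overlap in every panel.

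In what follows, where signals of both genotypes stand side by side, wild type comes first and knockout second, each in the order of its replicates. Complement C1q is the recognition subunit of the classical pathway, built from 3 chains that liver macrophages secrete. C1qa (chromosome 4, 136895916 to 136898844, GRCm38) had signals of 485, 364 and 482 in wild type and 280.2, 324 and 249 in knockout at 4 weeks, without overlap. It fell by 0.61 on the log2 scale (SE 0.16, adjusted p 0.0446). With saline it read 447, 493 and 521 in wild type and 311, 319 and 351 in knockout, again without overlap, and with DEN 437, 485 and 588 and 379.8, 584 and 640.2, where the genotypes overlapped. C1qc (chromosome 4, 136889801 to 136892936) read 442, 443 and 431 in wild type and 272, 302 and 305 in knockout at 4 weeks, 316, 353 and 371 against 272, 263 and 354 with saline and 429, 488 and 586 against 408, 469.6 and 518 with DEN. Its 4-week groups did not overlap, those with saline and DEN did, and at 4 weeks it fell by 0.56 (SE 0.12, adjusted p 0.0177). C1qb (chromosome 4, 136880126 to 136886200), whose gene lies in a row with those of the other chains on the chromosome, read 705, 656 and 551 in wild type and 354, 543 and 422 in knockout at 4 weeks, 575, 651 and 555 against 574, 746 and 566 with saline and 691, 639 and 745 against 479, 681 and 711 with DEN. The 4-week groups did not overlap, but the difference of -0.53 did not pass (adjusted p 0.0724). A second of its 3 probe sets did, with a fall of 0.89 (SE 0.17, adjusted p 0.00532), and the remaining one differed by -0.37 (adjusted p 0.121). The call for C1qa was lost without any one of 5 of the 6 arrays, with adjusted p values of 0.126 and 0.0542 without knockout replicate 1 or 2, 0.179 without knockout replicate 3, and 0.143 and 0.163 without wild-type replicate 1 or 3. It was also lost with centred array medians (0.0674), without the filter (0.0681), without the intensity trend (0.122) and without the saline arrays (0.121). The call for C1qc was lost without knockout replicate 1 (0.0894), wild-type replicate 1 (0.0521) or wild-type replicate 3 (0.0588), and without the intensity trend (0.0668).

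Csf1r encodes the receptor for the growth factors CSF1 and IL-34, on which macrophage survival depends. Its signal (chromosome 18, 61105572 to 61131139) was 2208, 2286 and 2110.1 in wild type and 1537, 1577 and 1445 in knockout at 4 weeks. The groups did not overlap, and Csf1r fell by 0.53 (SE 0.10, adjusted p 0.00494). With saline the signals were 1864, 2066 and 2078 in wild type and 1654, 1586 and 1769 in knockout, without overlap, a difference of -0.26 (adjusted p 0.912). With DEN they were 1828, 2104 and 2255 and 1732, 2129 and 2317, and the genotypes overlapped. The other probe sets of Csf1r differed by -0.47 (adjusted p 0.177) and -0.22 (adjusted p 0.557) at 4 weeks, and the mean over its probe sets did not pass (-0.40, adjusted p 0.101). The call was also lost without the 4-week array of highest Gapdh ratio in each genotype (0.0604).

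TYROBP (also DAP12) and FCER1G are signalling adaptors that carry the activation motifs for receptors of myeloid cells, and the Fc receptors bind antibody-coated particles. Tyrobp (chromosome 7, 30413782 to 30417582) read 393, 326 and 356 in wild type and 144, 160.5 and 154 in knockout at 4 weeks. The lowest wild-type array was above the highest knockout array by more than the range within either group, and Tyrobp fell by 1.14 (SE 0.16, adjusted p 0.000505). With saline it read 325, 325 and 232 and 315, 298 and 294, and with DEN 271, 351 and 454 and 318, 388 and 438; both pairs overlapped. Fcgr3 (chromosome 1, 171051169 to 171065915), a low-affinity activating Fc receptor, read 142, 116 and 126 in wild type and 82.3, 54.5 and 70.7 in knockout at 4 weeks, 103, 113 and 115 against 68.9, 80.2 and 92.7 with saline and 102, 140.5 and 103 against 131, 127 and 136 with DEN. The genotypes did not overlap at 4 weeks or with saline and did with DEN, and Fcgr3 fell by 0.77 at 4 weeks (SE 0.15, adjusted p 0.0081; 0.054 without knockout replicate 2). Fcgr2b (chromosome 1, 170960558 to 170976071), the inhibitory Fc receptor, read 1218, 1145 and 1163 and 1009, 943 and 938 at 4 weeks, 953, 1123 and 1203 and 893, 818 and 1018 with saline, and 1019, 1165 and 892 and 942, 1245 and 1255 with DEN, in wild type and knockout. Its 4-week groups did not overlap, with a difference of -0.28 (adjusted p 0.246). Fcer1g differed by -0.38 (adjusted p 0.19), and Fcgr1, the high-affinity receptor, by -0.10 (adjusted p 0.906). Of the 5 genes of this group, 2 fell (1.29% of all tested genes did) and all 5 differences were negative.

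The genes that define Kupffer cells and their scavenger receptors had mostly negative differences at 4 weeks, none past the test. Of 8, 0 were called (1.29% of all tested genes fell) and 7 differences were negative. For 5 the knockout arrays lay below all wild-type arrays, as for 9.99% of all tested genes. Clec4f (chromosome 6, 83644542 to 83656116) read 465, 458 and 435 on the knockout arrays at 4 weeks, all below the wild-type values given above (-0.43, adjusted p 0.0835). It read 595, 679 and 634 in wild type and 470.0, 439 and 549 in knockout with saline, without overlap, and 614, 697 and 671 and 512, 657 and 855 with DEN, where the knockout arrays spanned the wild-type range. Timd4 (chromosome 11, 46810786 to 46844333), a phosphatidylserine receptor for engulfing dying cells, read 77.3, 75.4 and 81.0 and 64.9, 57.8 and 40.7 at 4 weeks, 38.5, 59.0 and 68.9 and 53.5, 38.7 and 50.6 with saline, and 51.1, 83.2 and 104 and 63.3, 110.4 and 93.0 with DEN. Only the 4-week groups were apart (-0.43, adjusted p 0.374). Cd5l (chromosome 3, 87357881 to 87371074) read 862, 817 and 801 on the knockout arrays at 4 weeks (-0.56, adjusted p 0.0594), 1064, 1346 and 1342 against 1027, 875 and 1081 with saline and 1052, 1323 and 1566 against 986, 1378 and 1721 with DEN. The 4-week groups of Cd5l did not overlap; those with saline and with DEN did. Vsig4, a complement receptor of resident macrophages, had the largest difference of the group (-0.79, SE 0.23, adjusted p 0.0818), and Folr2, a folate receptor of resident macrophages, differed by -0.66 (adjusted p 0.15). Cd163, the receptor for haemoglobin bound to haptoglobin, was the exception at 0.19 (adjusted p 0.46). The scavenger receptors Marco and Msr1 differed by -0.18 and -0.12 (adjusted p 0.806 and 0.846).

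Among the lysosomal, phagosomal and secreted proteins, 1 of 6 fell at 4 weeks (1.29% of all tested genes did) and all 6 differences were negative. Lyz2 (chromosome 10, 117277541 to 117282272), the lysozyme of macrophages, read 816, 601 and 777 in wild type and 426, 375 and 417 in knockout at 4 weeks, without overlap, and fell by 0.82 (SE 0.16, adjusted p 0.0095). The call was lost without knockout replicate 2 (0.0506) or wild-type replicate 3 (0.0541) and without the intensity trend (0.0547). Whether the probe set also reads the closely related Lyz1 was not tested. Lyz2 read 549, 764 and 846 and 511, 611 and 567 with saline and 584, 954 and 952 and 911, 919 and 1009 with DEN, overlapping in both. Ctss (chromosome 3, 95526786 to 95556405), the cathepsin that trims the invariant chain of MHC class II, read 879.9, 1276 and 969 and 744, 900.0 and 804 at 4 weeks, 1095, 1029 and 1077 and 1001, 1164 and 978 with saline, and 936, 1168 and 1155 and 1180.1, 1136 and 1331 with DEN. The genotypes of Ctss overlapped in all 3 conditions (-0.33 at 4 weeks, adjusted p 0.172). Cd68, a lysosomal membrane glycoprotein, differed by -0.57 at 4 weeks (adjusted p 0.158), Cybb, the catalytic subunit of the phagocyte oxidase, by -0.36 (0.206), Mpeg1, a pore-forming protein of phagosomes, by -0.27 (0.309) and Lgals3, the lectin galectin-3, by -0.24 (0.645).

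CD14 hands bacterial endotoxin to its receptor TLR4, and LY86 (MD-1) partners the related receptor RP105. Cd14 (chromosome 18, 36725064 to 36726815) read 75.5, 73.4 and 58.8 in wild type and 6.79, 35.1 and 22.9 in knockout at 4 weeks. The knockout arrays were below every other array of the series, and Cd14 fell by 1.25 (SE 0.26, adjusted p 0.0106). At this low level the size depends on the number added before taking log2: it was -1.89 with 1 added and -0.65 with 64. Without knockout replicate 1, the lowest array, the difference was -0.93 and did not pass (adjusted p 0.0718). With saline Cd14 read 58.1, 61.1 and 96.2 and 59.0, 71.3 and 71.1, and with DEN 56.6, 45.4 and 72.7 and 38.3, 48.7 and 78.8, overlapping in both. Ly86 (chromosome 13, 37345345 to 37419036) read 238, 253 and 247 and 211, 189 and 203 at 4 weeks, 180.3, 241 and 263 and 173, 171 and 182 with saline, and 250.2, 199 and 355 and 215, 347 and 260.3 with DEN. The 4-week groups of Ly86 did not overlap (-0.27, adjusted p 0.489).

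The 4 genes of MHC class II presentation, H2-Aa, H2-Ab1, H2-Eb1 and the invariant chain Cd74, had differences between -0.43 and -0.15 at 4 weeks. None passed, where 1.29% of all tested genes fell. H2-Aa (chromosome 17, 34282744 to 34287823) read 807, 1057 and 921 and 872, 724 and 915 at 4 weeks, 1260.5, 979.7 and 1337 and 981, 1177 and 959 with saline, and 1145, 956 and 1338 and 1403, 1142 and 1114 with DEN, in wild type and knockout. Its genotypes overlapped in all 3 conditions. These genes are also expressed by dendritic cells and B cells.

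Of 5 genes shared with other leukocytes, 1 fell at 4 weeks, where 1.29% of all tested genes fell. Cd53 (chromosome 3, 106758861 to 106790149), a tetraspanin of leukocyte membranes, read 169, 196 and 186 in wild type and 112, 104 and 131 in knockout at 4 weeks, 148, 166 and 157 against 123, 121 and 133 with saline and 154, 204 and 185 against 194, 253 and 226 with DEN. The genotypes were apart at 4 weeks and with saline, knockout below wild type, and overlapped with DEN. Cd53 fell by 0.61 at 4 weeks (SE 0.13, adjusted p 0.0129), a call lost without knockout replicate 1 (0.0559), knockout replicate 2 (0.069) or wild-type replicate 3 (0.0554), with only the compared groups in the fit (0.0502) or without the saline arrays (0.0589). Ptprc (chromosome 1, 138062859 to 138175756), the common leukocyte antigen CD45, read 236, 238 and 239 and 156, 185 and 167 at 4 weeks, 222, 265 and 249 and 209.8, 197 and 223 with saline, and 129, 228 and 217 and 195, 206 and 269 with DEN. Its 4-week groups did not overlap (-0.45, adjusted p 0.151). Aif1 (IBA1), an actin-bundling protein of macrophages, differed by -0.75 (0.118), Coro1a, an actin regulator, by -0.27 (0.55) and Laptm5, a lysosomal membrane protein, by -0.15 (0.724), the values in parentheses being adjusted p.

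Of the receptors of blood monocytes and those for dying cells, 0 of 4 tested passed at 4 weeks (1.29% of all tested genes fell and 1.78% rose). Ccr2 (chromosome 9, 124101918 to 124109140), the chemokine receptor that brings monocytes into tissue, read 30.9, 26.3 and 39.3 and 35.2, 36.2 and 33.5 at 4 weeks, 63.3, 33.3 and 32.1 and 59.7, 45.8 and 43.8 with saline, and 54.6, 38.7 and 30.6 and 14.0, 19.1 and 25.8 with DEN. The genotypes of Ccr2 overlapped at 4 weeks (0.09, adjusted p 0.902), and with DEN the knockout arrays were the 3 lowest (-0.68, adjusted p 0.381). Mertk (chromosome 2, 128698915 to 128803162), a receptor tyrosine kinase for dying cells, read 246, 309 and 244 and 259, 271 and 275 at 4 weeks, 293, 298 and 263 and 304, 290.0 and 325 with saline, and 266, 296 and 288 and 244, 237 and 283 with DEN. Its interval at 4 weeks ran from -0.21 to 0.24, around a difference of 0.02 (adjusted p 0.961). The related receptor Axl differed by -0.22 (adjusted p 0.625) and Cx3cr1, the fractalkine receptor, by -0.24 (adjusted p 0.744). The second probe sets of the listed genes gave 24 further tested probe sets for 11 genes: 18 differences were negative and 6 positive, and 1 fell.

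**Figure D2:**
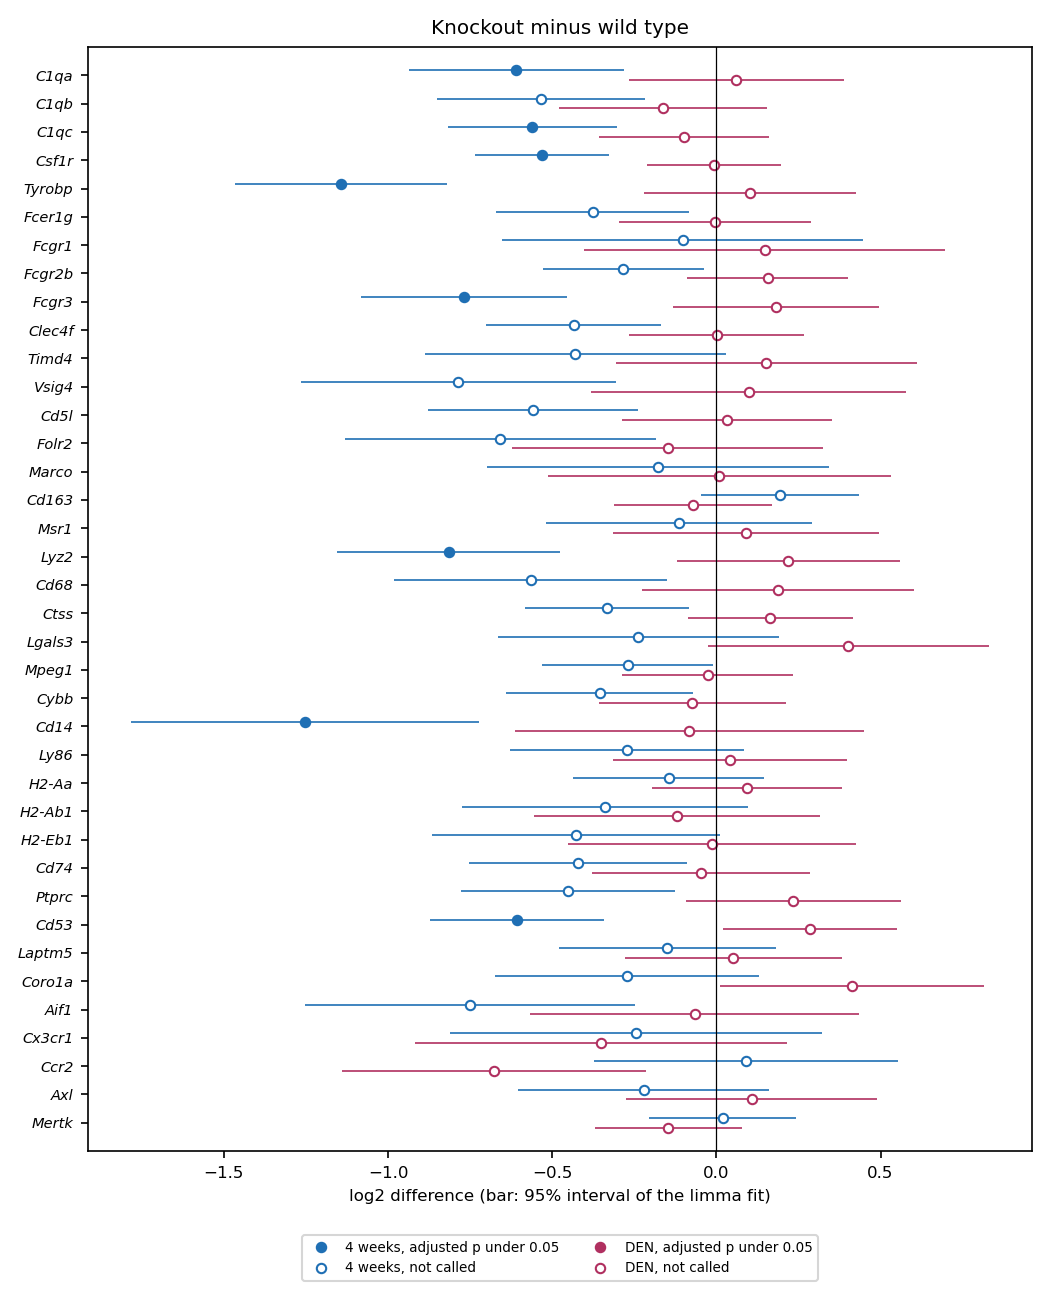
Knockout minus wild type for the 38 tested genes, in log2(signal + 16), at 4 weeks (blue) and with DEN (red), 3 arrays per group; bars are 95% intervals of the limma fit, and filled points have an adjusted p under 0.05. At 4 weeks 8 points are filled and 35 of 38 lie left of 0; with DEN none is filled and 22 lie right of 0.

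The upstream sequence of the genes that fell was read to show the promoters to which the 4-week values belong. RefSeq promoter entries (build GRCm38.p6) were matched for 32 of the 39 genes, with 36 start sites; Msr1, Cd14, Tyrobp, Cd74, Csf1r, C1qa and H2-Ab1 had none. The motif searched was GAGGAA on both strands (TTCCTC on the other), the core bound by PU.1, the transcription factor that sets up the myeloid lineage. It was present in the 250 bases before 16 of the 36 starts (44.4%), beside 7639 of all 32851 promoters (23.3%), and before 4 of the 5 starts of genes that fell. A match is a description of the letters and shows no binding. The 4 genes below fell at 4 weeks and have an entry; each line runs 5′ to 3′ on the strand of the gene, ends at the base before the start, and has the motif in capitals.
Cd53: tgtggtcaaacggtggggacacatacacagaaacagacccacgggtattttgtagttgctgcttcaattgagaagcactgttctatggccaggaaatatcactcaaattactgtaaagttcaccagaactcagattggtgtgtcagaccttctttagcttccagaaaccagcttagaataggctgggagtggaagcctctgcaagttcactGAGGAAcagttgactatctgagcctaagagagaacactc
C1qc: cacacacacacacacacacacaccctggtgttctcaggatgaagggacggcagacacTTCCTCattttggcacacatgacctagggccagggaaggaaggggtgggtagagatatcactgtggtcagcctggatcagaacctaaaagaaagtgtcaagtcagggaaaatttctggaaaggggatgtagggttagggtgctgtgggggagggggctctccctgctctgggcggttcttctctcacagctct
Fcgr3: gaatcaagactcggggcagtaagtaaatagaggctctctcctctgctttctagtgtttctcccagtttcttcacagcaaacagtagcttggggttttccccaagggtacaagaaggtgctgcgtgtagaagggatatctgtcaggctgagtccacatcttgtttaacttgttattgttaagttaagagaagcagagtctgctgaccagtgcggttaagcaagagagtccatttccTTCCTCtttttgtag
Lyz2: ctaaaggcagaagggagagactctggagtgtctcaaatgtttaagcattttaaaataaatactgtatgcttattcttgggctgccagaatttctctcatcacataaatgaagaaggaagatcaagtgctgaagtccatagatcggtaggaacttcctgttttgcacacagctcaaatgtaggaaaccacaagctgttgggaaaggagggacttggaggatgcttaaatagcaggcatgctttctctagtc
These are chr3:106790150-106790399, chr4:136892915-136893164, chr1:171059395-171059644 and chr10:117282273-117282522, all on the minus strand. The nearest match begins 39 bases before the start of Cd53, 193 before that of C1qc and 15 before that of Fcgr3, and the window of Lyz2 holds none. Fcgr3 has a second start a few bases away whose window shares this sequence.

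With saline at 12 weeks 0 of the 38 genes passed between the genotypes, where 0.0155% of all tested genes rose and 0% fell (limma). By unadjusted p under 0.05 there were 8, against 752 of all 12896 genes. The differences were negative for 30 of 38, with a median of -0.19 beside 0.02 over all genes. In 11 the knockout arrays lay below all wild-type arrays (8.13% of all genes) and in 1 above (10.4%). The difference of C1qa was -0.55 (SE 0.16, adjusted p 0.625), that of Clec4f -0.38 (SE 0.13, 0.813) and that of Fcgr3 -0.39 (SE 0.15, 0.925). Tyrobp and Cd14 differed by 0.05 and -0.06. With quantile-normalized values 0 passed as well (0.031% of all genes rose), and the median was -0.22.

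With DEN 0 of the 38 genes passed between the genotypes, where 0% of all tested genes rose and 0.00775% fell; 3 had an unadjusted p under 0.05, against 1153 of all genes. The differences were positive for 22 and negative for 16, with a median of 0.04 beside -0.01 over all genes. In 1 gene the knockout arrays lay above all wild-type arrays (Lgals3; 4.97% of all genes) and in 1 below (Ccr2; 5.99%). For the 8 genes that fell at 4 weeks the differences ran from -0.10 to 0.29, and their 95% intervals together from -0.61 to 0.56. The interval of Tyrobp with DEN was -0.22 to 0.43 and that of Lyz2 -0.12 to 0.56. The 4-week differences of these 2 genes (-1.14 and -0.82) lie outside their own intervals. Those of C1qa, Cd53, C1qc and Csf1r at 4 weeks lie within the joint range, which is no interval of any one gene. The largest positive differences were those of Coro1a (0.41, adjusted p 0.546) and Lgals3 (0.40, adjusted p 0.591), and the largest negative one was that of Ccr2.

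Whether the genotype difference itself changed was tested as knockout minus wild type with DEN less the same at 4 weeks. It rose for 4 of 38 genes and fell for 0, where it rose for 0.52% of all tested genes and fell for 0.558%. Tyrobp changed by 1.25 (SE 0.22, limma adjusted p 0.0111), Lyz2 by 1.03 (SE 0.23, 0.0381), Fcgr3 by 0.95 (SE 0.21, 0.0381) and Cd53 by 0.89 (SE 0.18, 0.0227). The change was positive for 34 of 38 genes, with a median of 0.44 beside -0.03 over all genes. It uses the same 4-week arrays as the comparison above and is no separate evidence of it. Tyrobp kept its call without any one of the 12 arrays (highest adjusted p 0.0335) and lost it without the intensity trend (0.0681). Cd53 lost it without knockout replicate 1 (0.0522) or 2 (0.0643) or wild-type replicate 3 (0.0536) at 4 weeks or knockout replicate 2 with DEN (0.0692), Lyz2 without any one of 8 arrays (up to 0.0979) and Fcgr3 without any one of 9 (up to 0.0961). The number called was 2 without wild-type replicate 1 or knockout replicate 1 or 3 at 4 weeks, wild-type replicate 1 or knockout replicate 3 with DEN, and 1 without wild-type replicate 3 or knockout replicate 2 at 4 weeks or knockout replicate 2 with DEN. The Gapdh ratio did not overlap between the genotypes with DEN (1.02 to 1.13 and 0.907 to 0.937), and with it as a covariate Lyz2 lost its call (0.0532). Without the 4-week arrays of highest ratio Cd53 lost its call (0.0674). The genotype difference with DEN less that with saline was called for 0 genes by adjusted p (0% of all genes in either direction). That with saline less that at 4 weeks was also called for 0 (0% rose and 0.00775% fell among all genes).

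Against uninjected liver at 4 weeks, 16 macrophage genes were higher in DEN-injected knockout liver, among them the signalling adaptor Tyrobp and the lysozyme Lyz2. In knockout 16 of 38 genes rose and 0 fell, where 4.32% of all tested genes rose and 4.47% fell. The difference was positive for 36 of 38, with a median of 0.49 beside 0.00 over all genes, and for 22 the DEN arrays lay above all 4-week arrays (13.5% of all genes). In wild type 0 of 38 passed, where 2.27% of all genes rose and 2.44% fell. The median there was 0.06 beside 0.04. DEN, the injection and age differ together in this comparison and cannot be told apart in it. The knockout comparison shares its 4-week arrays with the genotype comparison at 4 weeks. Markers of other cells moved with it in knockout: the summed signal of the 14 stellate cell genes was 6196 to 6302 at 4 weeks and 6471 to 8106 with DEN, with 2 of 14 that rose, and that of 16 lymphocyte genes 380 to 489 and 641 to 727, with 1 of 8 tested that rose. The part of these cells in the result was not tested.

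Tyrobp rose by 1.22 in knockout (SE 0.16, limma adjusted p 0.000149), from a mean signal of 153 ± 8.13 (SD, n = 3) to 381 ± 60.6 (SD, n = 3), and differed by -0.02 in wild type. Lyz2 rose by 1.19 (SE 0.16, 0.000326), from 406 ± 27.5 (SD, n = 3) to 947 ± 54.0 (SD, n = 3), and differed by 0.16 in wild type. All 8 genes that were lower at 4 weeks were among the 16. Both comparisons use the same knockout arrays at 4 weeks, so this overlap is no separate evidence. The others that rose were Vsig4 (1.04), Lgals3 (0.97), Cd68 (0.80), Cd5l (0.67), Fcer1g (0.62), Ctss (0.57), Clec4f (0.53) and H2-Aa (0.53), with adjusted p between 0.00689 and 0.0217. By role, 4 of 6 lysosomal and secreted proteins rose, 3 of 5 adaptors and Fc receptors, and 3 of 8 Kupffer cell markers and scavenger receptors. So did 2 of 3 C1q chains and 1 of 4 genes of MHC class II presentation, beside 4.32% of all tested genes. Lgals3, which marks activated macrophages among other cells, read 82.4, 103 and 102 in knockout at 4 weeks and 280.2, 166 and 177 with DEN, without overlap, and 118, 107 and 122 and 135, 159.5 and 154 in wild type, also without overlap (0.33, adjusted p 0.401). In wild type the differences of the 16 genes ran from -0.21 to 0.33, and their 95% intervals together from -0.74 to 0.76.

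**Figure D3:**
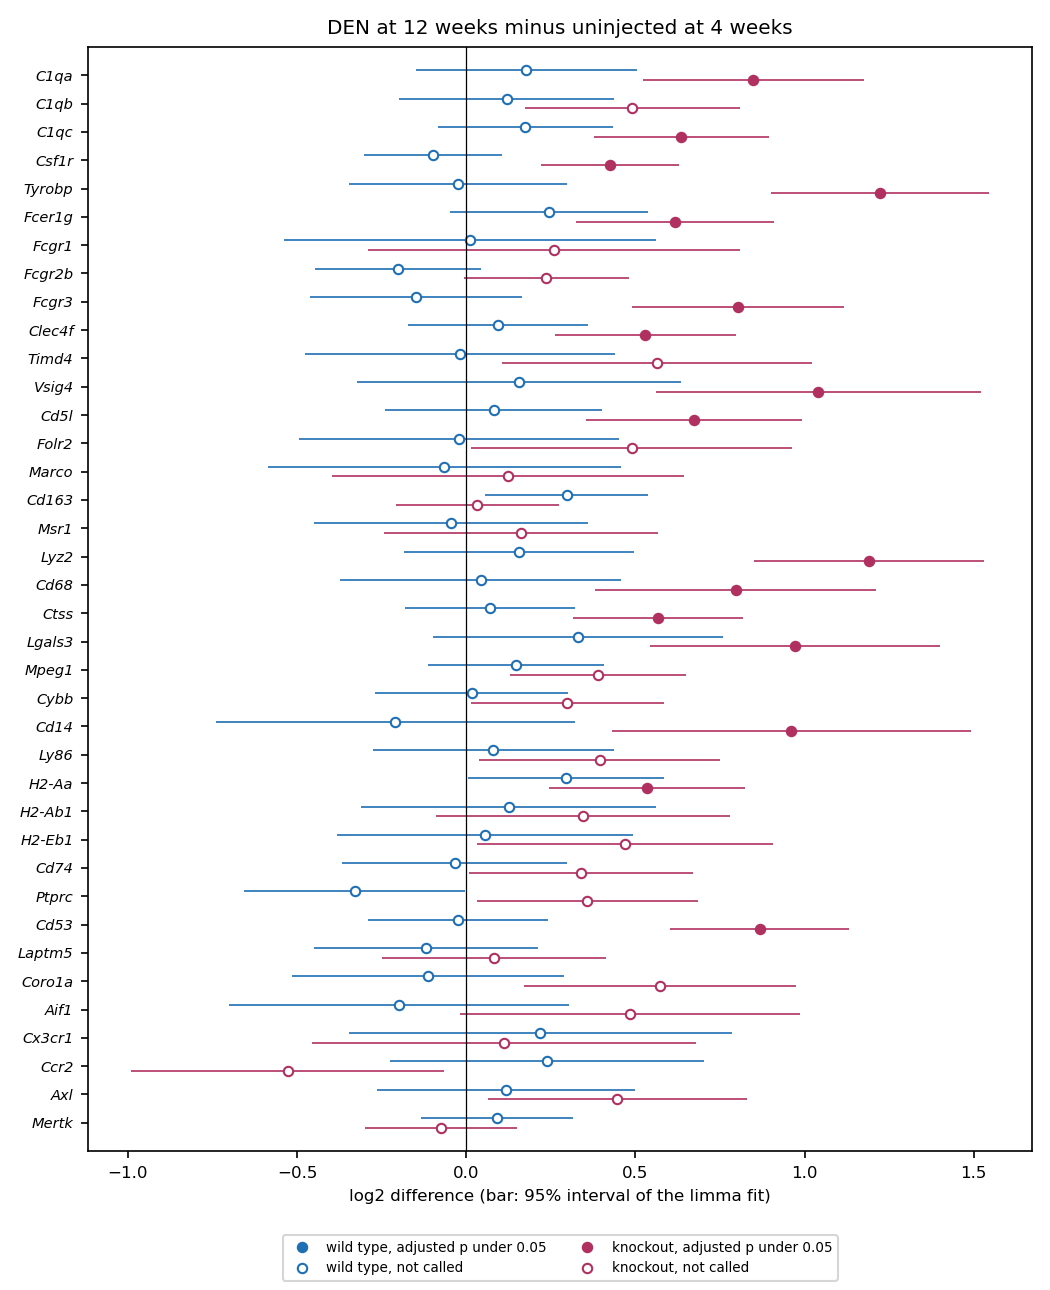
DEN at 12 weeks minus uninjected at 4 weeks for the 38 tested genes, in log2(signal + 16), in wild type (blue) and knockout (red), 3 arrays per group; bars are 95% intervals of the limma fit, and filled points have an adjusted p under 0.05. In knockout 16 points are filled, all right of 0; in wild type none is filled and all points lie between -0.33 and 0.33.

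RNA quality moved with this comparison. The Gapdh ratio did not overlap between the knockout arrays at 4 weeks (1.35 to 1.70) and with DEN (0.907 to 0.937). With the log2 ratio as a covariate in the fit, 0 of the 16 genes passed; the differences stayed positive, at 1.01 for Tyrobp (adjusted p 0.0796) and 0.84 for Lyz2 (0.152), with a median of 0.39 over the 38 genes, and 8 of 27022 probe sets passed in all. The condition and the ratio cannot be told apart in this comparison. The ratio overlapped between the genotypes at 4 weeks, where 8 genes passed with the covariate as without it. Leaving out the 4-week array of the highest ratio in each genotype, an alternative added after the data were seen, left 3 of the 8 called at 4 weeks (Tyrobp, Fcgr3 and Lyz2) with a median of -0.42 over the list. It ended the calls of C1qa (0.0753), C1qc (0.138), Csf1r (0.0604), Cd14 (0.132) and Cd53 (0.113), and kept 14 of the 16 with DEN. The calls in knockout with DEN were 11 to 18 without 1 array. Those lost were Cd68, Cd14 and H2-Aa (adjusted p 0.0912, 0.152 and 0.0582) without knockout replicate 1 at 4 weeks, H2-Aa (0.0907) without replicate 2, and Csf1r, Fcer1g, Clec4f, Cd68 and Cd14 (0.0509 to 0.0635) without replicate 3. Without a knockout DEN array they were H2-Aa (0.0906) without replicate 1, Cd68 and Cd14 (0.0595 and 0.0563) without replicate 2, and Csf1r, Clec4f, Cd5l, Cd68 and Cd14 (0.0533 to 0.104) without replicate 3.

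Against saline, which holds the time of collection constant, DEN gave 10 genes that rose and 1 that fell in knockout, where 7.73% of all tested genes rose and 7.51% fell. The median was 0.26 beside -0.06 over all genes. Cd53 rose by 0.76 (SE 0.13, limma adjusted p 0.000291), C1qc by 0.63 (0.00133), Lyz2 by 0.73 (0.00382), C1qa by 0.65 (0.00718), Fcgr3 by 0.61 (0.00792) and Lgals3 by 0.75 (0.017). Timd4, Ly86, Clec4f and Csf1r rose by 0.70, 0.58, 0.44 and 0.29 (adjusted p 0.0345, 0.0263, 0.0247 and 0.0499). Leaving out any one of several of the 6 arrays ended these calls: 5 arrays for Timd4 (adjusted p up to 0.147) and Csf1r (up to 0.22), and 4 for Ly86 (up to 0.15) and Clec4f (up to 0.16). The call of Lgals3 was lost without any one of 3 arrays (up to 0.106), and that of Fcgr3 without knockout saline replicate 1 (0.054). Without knockout DEN replicate 3 the difference of Clec4f was 0.25. Ccr2 fell by 0.89 (SE 0.22, adjusted p 0.00938), from 49.7 ± 8.69 (SD, n = 3) to 19.7 ± 5.88 (SD, n = 3). This call was lost without knockout saline replicate 1 (0.0578). The other tested probe sets of Ccr2 differed by -0.66 (adjusted p 0.0523) and -0.36 (0.386). With quantile-normalized values 10 rose and 1 fell (5.79% and 5.6% of all genes), and Csf1r was not among the called (0.21, adjusted p 0.184). The Gapdh ratio did not overlap here either (1.21 to 1.41 with saline). With it as a covariate 2 of the 11 kept their call, Cd53 (adjusted p 0.0026) and C1qc (0.0253), and the other 9 had adjusted p values from 0.0614 to 0.234; C1qa differed by 0.40. Hepatocyte genes also read higher with DEN than with saline: 9 of 13 rose, with a summed signal of 131510 to 134908 with saline and 254477 to 264053 with DEN. Uninjected knockout liver at 4 weeks had 256962 to 273605. In wild type the sum was 116368 to 146866 with saline and 239465 to 270785 with DEN. The saline arrays had the compressed upper range given above, and its part in this difference was not tested. The count of macrophage genes called was 4 without knockout saline replicate 1, and 7 without saline replicate 2 or 3 or DEN replicate 2.

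In wild type DEN against saline gave 1 call of 38, where 3.82% of all genes rose and 3.18% fell. C1qc rose by 0.50 (SE 0.12, adjusted p 0.0149), and this call was lost without wild-type DEN replicate 3 (0.0975) or saline replicate 1 (0.0896). Saline at 12 weeks against 4 weeks gave 4 genes that rose in knockout, where 5.4% of all genes rose and 6.29% fell. They were Tyrobp (0.91, adjusted p 0.000444), Cd14 (1.22, 0.00318), Fcer1g (0.53, 0.0191) and C1qb (0.51, 0.0365). The call of C1qb was lost without any one of 5 of the 6 arrays (adjusted p 0.0503 to 0.205) and under 6 other settings, and that of Fcer1g without any one of 3 (0.0626 to 0.0701) and with centred array medians (0.123). The count was 2 without knockout replicate 3 at 4 weeks or knockout saline replicate 1 or 2. In wild type 1 gene rose, where 4.87% of all genes rose and 4.92% fell: Cd163, by 0.37 (adjusted p 0.0498), a call lost without any one of 5 of the 6 arrays (0.209 without wild-type replicate 2 and 0.0891 without replicate 3 at 4 weeks, 0.171, 0.123 and 0.0948 without saline replicate 1, 2 or 3) and that quantile-normalized values did not give (0.117).

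Over the 6 groups, the knockout at 4 weeks had the lowest mean for 26 of the 38 genes, and the knockout with DEN had the highest for 17. Wild type at 4 weeks and with DEN had the highest for 7 each, wild type with saline for 5 and knockout with saline for 2. With DEN, and in knockout with saline, the arrays of a group were spread more widely for these genes than for others. With DEN the median SD on the log2 scale was 0.254 in wild type and 0.233 in knockout, beside 0.191 and 0.186 over all tested genes. With saline it was 0.131 and 0.158 beside 0.123 and 0.129, and at 4 weeks 0.172 and 0.155 beside 0.181 and 0.152. Wild-type DEN replicate 1 was the lowest of its 3 arrays for 25 of 38 genes and replicate 3 the highest for 22. Knockout DEN replicate 1 was the lowest for 21 and replicate 3 the highest for 26.

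A further 24 genes of Kupffer cells and macrophages, listed apart from the 39, were read in the same way. They were read on the same arrays and listed with earlier results of these data known, so they are no separate evidence. Of 21 tested, 2 fell at 4 weeks, where 1.29% of all tested genes fell. For 18 the difference was negative, and the median was -0.24. Fcna, the ficolin of mouse Kupffer cells, fell by 0.78 (SE 0.13, adjusted p 0.0019), from a mean signal of 651 ± 81.9 (SD, n = 3) to 372 ± 15.2, and Adgre4, an adhesion receptor of macrophages, fell by 0.79 (SE 0.16, adjusted p 0.00931). Adgre1, the F4/80 antigen, differed by -0.27 (adjusted p 0.482). With DEN against 4 weeks in knockout 7 of the 21 rose and 0 fell, where 4.32% of all tested genes rose and 4.47% fell. The median was 0.40. Among the 7 were Fcna by 0.91 (adjusted p 0.00037), Adgre1 by 0.77 (0.00724), Adgre4 by 0.63 (0.0179) and Clec1b, the lectin receptor CLEC-2, by 0.63 (0.00419). Of 11 lineage and growth factors, such as Irf8, Maf and Csf1, 0 passed at 4 weeks, with a median of -0.05. Of 22 ligands, partners and signalling proteins of the listed genes, 0 passed, with a median of -0.03.

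Markers of other liver cells were read beside the 4-week result, where 1.29% of all tested genes fell and 1.78% rose. Their calls were not repeated under the alternatives or with arrays left out. Of 14 stellate cell genes, 2 fell and 12 were negative, and the median was -0.31. These 2 were Dcn, the proteoglycan decorin (-0.53, SE 0.10, adjusted p 0.00413), and Acta2, smooth muscle actin (-1.35, SE 0.35, adjusted p 0.0423). Of 18 sinusoidal endothelial genes 0 passed, the median was -0.02, and the sum was 5630 to 5690 in wild type and 5344 to 5550 in knockout. Of 13 hepatocyte genes 1 rose (Hnf4a, a transcription factor of hepatocytes, 0.46, adjusted p 0.00238), the median was 0.08, and the sums were 242407 to 258738 and 256962 to 273605. Of 8 tested lymphocyte genes 0 passed, with a median of -0.21 and sums of 489 to 532 and 380 to 489, and of 9 inflammatory monocyte and neutrophil genes 0 passed, with a median of 0.04 and sums of 484 to 635 and 479.7 to 601. Dendritic cell genes gave 0 of 4 and red blood cell genes 0 of 1. The part of these other cells in the macrophage result was not tested.

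**Figure D4:**
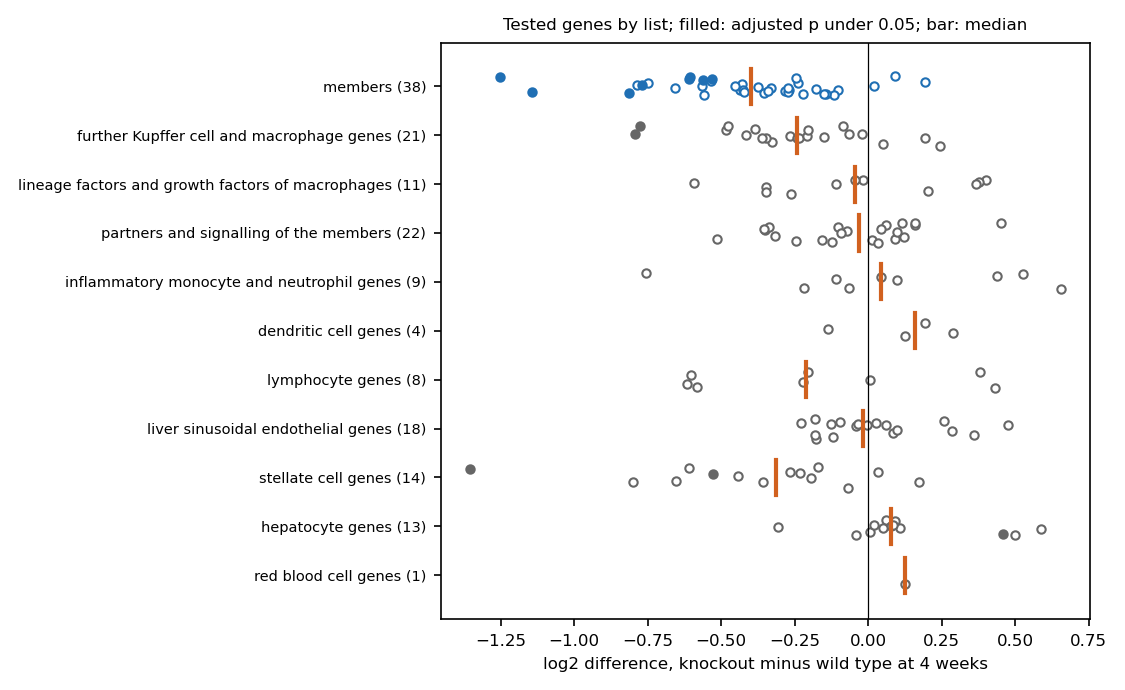
Knockout minus wild type at 4 weeks, in log2(signal + 16), for the tested genes of each list (1 point per gene, number tested in parentheses, orange bar at the median, filled points with an adjusted p under 0.05). The 38 macrophage genes have their median at -0.40, the further macrophage genes at -0.24 and the stellate cell genes at -0.31, and the endothelial and hepatocyte medians are at -0.02 and 0.08.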

How the data were processed

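The deposited values are linear intensities, 1 for each probe set on each array; the authors made them with MAS5, per the submitters' processing notes, and its version is not given in the sources used here. No counts or depth exist, and the number of arrays (3 per group) limits the precision. From these, 64 control probe sets were left out, 16 was added and log2 taken, so the change of low signals is understated. The lowest 40% of probe sets by mean log2 were not tested, which left 27022, for 12896 genes. Of 45037 probe sets, 34945 have 1 gene symbol in the platform annotation, 932 several and 9160 none; symbols and positions (GRCm38) can be old. Probe sets whose names end in _x_at or _s_at may bind related transcripts, which holds for 6 members (C1qb, Fcgr2b, H2-Aa, H2-Ab1, Laptm5 and Aif1).

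The test was that of limma 3.58.1 (lmFit, then eBayes with its trend option; R 4.3.3), from 1 fit over 6 groups with 12 residual and 9.19 prior degrees of freedom, two-sided, with Benjamini-Hochberg adjustment over all tested probe sets; 12 comparisons were made. On simulated data for the 4-week comparison, 200 of 27022 probe sets were changed. The fit recovered 64.5% of changes of 1 on the log2 scale and 7.5% of changes of 0.5, so uncalled genes may differ by such sizes. Of the probe sets called, 4.44% and 11.8% were unchanged ones. The real number of changes is not known, so these shares need not hold for the real arrays. Figures were drawn with matplotlib 3.10.9.

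The members and all lists were chosen with earlier results of these data known. Genes given with values on every array are those called in a genotype comparison or in a test between genotype comparisons, the member of highest signal in each role, and Clec4f and Timd4. Lgals3 and Ccr2 with DEN were described after their values were seen. From the other lists, up to 4 called genes per comparison were named; Adgre1 at 4 weeks was added to show the same gene in both comparisons. Alternatives covered normalization, the number added, the filter, the variance model, array weights, the probe set per gene, the arrays in the fit, the Gapdh ratio, a replicate block and leaving out each array.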

Additional observations from a re-analysis of the deposited data

Results flagged for a closer look

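The genotype difference with DEN differed from that at 4 weeks, by the limma test of the difference itself, for 4 of the macrophage genes. Over all tested genes it rose for 0.52% and fell for 0.558%. Knockout minus wild type was higher with DEN by 1.25 for Tyrobp, 1.03 for Lyz2, 0.95 for Fcgr3 and 0.89 for Cd53 on the log2 scale, with the adjusted p values given above.

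The same test passed for 3 genes of the other lists, whose calls were not repeated under the alternatives or with arrays left out. It was 0.96 for Fcna (SE 0.18, adjusted p 0.0159), which Kupffer cells secrete, 0.77 for Dcn of the stellate cell list (SE 0.14, adjusted p 0.0111) and -0.59 for Hnf4a of the hepatocyte list (SE 0.11, adjusted p 0.0157).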

How the results depend on the processing

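No result reversed under any alternative run, and of the repeats of single-gene calls 505 kept their side of the threshold and 95 lost it (203 and 91 with 1 array left out). The alternative on the arrays of highest Gapdh ratio was chosen after seeing the data. The count of members called between the genotypes at 4 weeks (8) was 5 without an intensity trend, 3 without the 4-week arrays of highest Gapdh ratio, and 4 to 9 with 1 array left out (4 without wild-type replicate 3 or knockout replicate 1, 5 without knockout replicate 2). For the genotype difference with DEN less that at 4 weeks (4), it was 2 without the filter, 0 without the trend, 1 with only the compared groups, 1 without the saline arrays and 1 to 6 with 1 array left out. With array weights 1 member passed between the genotypes with saline (0 otherwise) and 1 in that difference less the one at 4 weeks, as with only the compared groups; leaving out 1 array gave 0 to 0 in these, between the genotypes with DEN, in the genotype difference with DEN less that with saline, and for DEN against 4 weeks in wild type. For DEN against 4 weeks in knockout (16) it was 0 with the Gapdh ratio as covariate and 11 to 18 with 1 array left out. For DEN against saline in wild type (1) it was 0 with centred medians and 0 to 1 with 1 array left out, and in knockout (11) 3 with the Gapdh covariate and 4 to 14. For saline against 4 weeks in wild type (1) it was 0 with quantile values, centred medians, 64 added, no filter, no trend, the replicate block, only the compared groups, the Gapdh covariate or without the arrays of highest Gapdh ratio, 2 with array weights, and 0 to 1 with 1 array left out; in knockout (4) it was 2 with centred medians, 7 with only the compared groups, and 2 to 4. Centring array medians moved the median of all genes for knockout minus wild type with saline from 0.02 to -0.10 and that of the members from -0.19 to -0.32.

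Over all tested genes, deviations of same-numbered samples correlated between -0.0978 and 0.116, under the level at which the numbers were to be taken as pairs. For the summed member signal, however, replicate 1 was the lowest and replicate 3 the highest in each of the 4 injected groups, and whether these share a source was not tested. With the number as a block the counts were 10 at 4 weeks, 17 for DEN against 4 weeks in knockout, 13 for DEN against saline in knockout, 5 for saline against 4 weeks in knockout, 3 for the genotype difference with DEN less that at 4 weeks, and 0 for saline against 4 weeks in wild type.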
